A study of Mus musculus with 4 samples.

Results

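CD4 T cells with a count of Ifng were compared with CD4 T cells without one, inside 2 single-cell RNA-seq runs of cells sorted as group 3 innate lymphoid cells (ILC3) from the small intestinal lamina propria. All cells came from C57BL/6 mice aged 6-8 weeks, for which the labels name no treatment and no genetic change, so both states share strain, age and tissue. The sort aimed at ILC3, so these T cells are the ones that passed into that sort and are no sample of all gut CD4 T cells. Each run held 1 replicate, marked by a sample tag and captured on a BD Rhapsody cartridge beside cells of other tags, which were not used here. The deposited tag list gives tag 8 for replicate 1, whereas the sample's own label gives tag 4. No cell of that run was called tag 4, so tag 8 was taken. Run 1 is deposited as reads per cell and run 2 as molecules per cell. Of values above 0, 26.8% equalled 1 in run 1 and 66.3% in run 2, so levels were compared inside a run and never between runs.

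Members were chosen by measured counts. A CD4 T cell had at least 1 count of Cd4, at least 1 count of at least 2 of Cd3d, Cd3e, Cd3g and Trac, and 0 counts of Cd8a, Cd8b1 and Trdc. Of 10043 cells with at least 300 genes and under 20% mitochondrial counts, 1422 met this gate, 693 in run 1 and 729 in run 2. Of these, 430 had at least 1 Ifng count (190 and 240) and 992 had none (503 and 489). Because Ifng, Cd4, the CD3 chains, Trac, Cd8a, Cd8b1 and Trdc set the groups, those 9 genes were not tested. The label was checked on 9 other genes of alpha-beta T cells, Trbc1, Trbc2, Cd247, Cd5, Cd6, Cd28, Lat, Thy1 and Bcl11b, of which Thy1 is also a gene of innate lymphoid cells. At least 3 of the 9 had a count in 84.2% of Ifng-positive and 84.1% of Ifng-negative cells of run 1, and in 90.8% and 86.7% of run 2. At least 3 of 12 listed ILC3 markers had one in 6.84% and 7.75% of run 1 and in 10.4% and 9.41% of run 2, although at least 1 ILC3 marker had a count in 82.1% to 95.4% of the cells of each group.

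Ifng encodes interferon-gamma, the hallmark cytokine of T helper 1 (Th1) cells, which activates macrophages and raises antigen presentation. In the textbook account, interleukin-12 acts through its receptor chains IL12RB1 and IL12RB2 and STAT4, interleukin-18 acts through IL18R1 and IL18RAP, and the T-box factor T-bet, encoded by Tbx21, drives the Ifng gene. The gut lamina propria is known to hold many effector and memory CD4 T cells, among them Th1, Th17 and regulatory T cells, so the question here was which other transcripts accompany Ifng.

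An Ifng count was present in 27.4% of CD4 T cells in run 1 (Wilson 95% interval 24.2 to 30.9) and 32.9% in run 2 (29.6 to 36.4). These values describe the selection and carry no test, and the intervals cover counting error only. The Ifng count of a positive cell had a median of 3 and a maximum of 89 in run 1, and a median of 2 and a maximum of 47 in run 2. A count of exactly 1, just inside the limit, was found in 43 of the 190 positive cells of run 1 and in 108 of the 240 of run 2. All cells just outside it have 0. The Ifng transcripts were unevenly spread, since the 10 cells with the most Ifng held 27.4% of all Ifng counts of CD4 T cells in run 1 and 26.4% in run 2.

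Depth differed little between the states. Ifng-positive cells had a median of 4802.5 counts other than Ifng in run 1, against 4561 in Ifng-negative cells, and 2071.5 against 2059 in run 2. From the shallowest to the deepest quartile of cells, the Ifng-positive share was 23.1%, 24.3%, 26.6% and 35.6% in run 1. In run 2 it was 30.8%, 34.6%, 32.4% and 33.9%. The share was therefore highest in the deepest cells of run 1 and showed no such order in run 2.

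**Figure D1:**
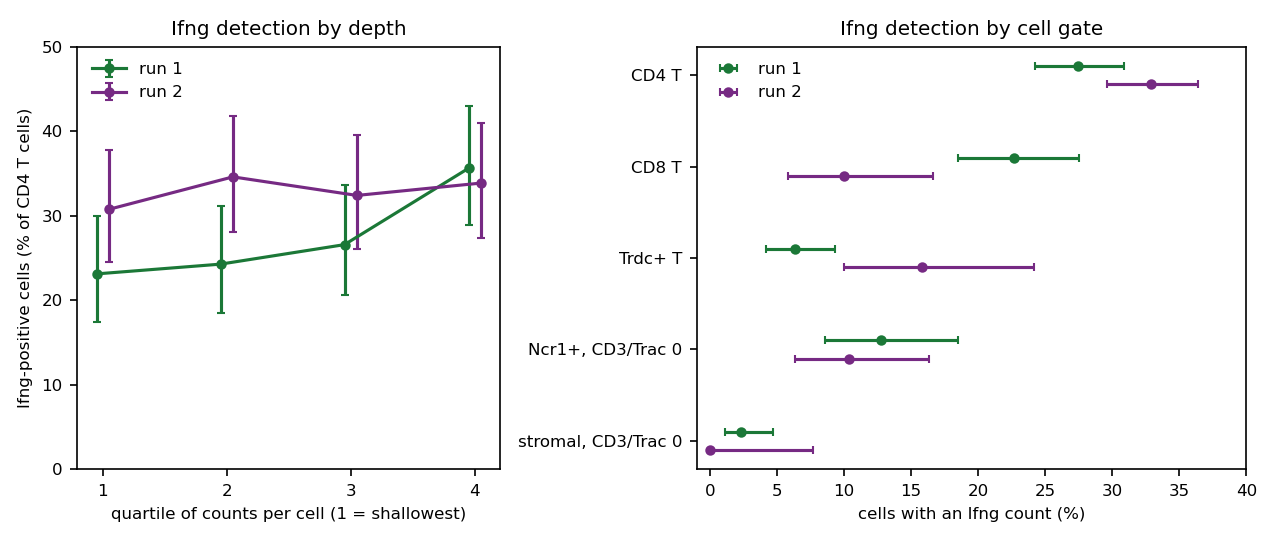
Left, share of CD4 T cells with an Ifng count (y axis, %) by quartile of counts per cell (x axis) in run 1 and run 2, with lines joining quartiles of the same run. Right, share of cells with an Ifng count (x axis, %) in CD4 T cells and 4 other gates. Bars are Wilson 95% intervals. CD4 T cells have the highest share in both runs, 27.4% and 32.9%, and stromal cells have 2.33% in run 1 and 0 of 46 cells in run 2.

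Outside the CD4 gate Ifng was less often detected. CD8 T cells, gated on Cd8a in the same way, had an Ifng count in 22.7% of 326 cells in run 1 and in 12 of 120 cells in run 2. Cells with Ncr1, a receptor gene of NK cells and some innate lymphoid cells, and without CD3 or Trac counts had one in 12.7% and 10.3%. Cells that should lack the transcript set the background: stromal cells with Col1a1, Col3a1 and Dcn had an Ifng count in 7 of 301 cells of run 1 (2.33%, median 9780 counts per cell) and in 0 of 46 in run 2, which allows a share of up to 6.52%. The CD4 T-cell shares, at median depths of 4665 and 2068, stood above the stromal share of run 1 and above the limit that the 0 of run 2 allows, where stromal cells had a median of 5527 counts.

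Counts were then summed over the cells of each state and run, giving 4 sums of 551263 to 2512373 counts, and tested with edgeR's quasi-likelihood F test with the run as a block and Benjamini-Hochberg adjustment. Each value in CPM is a count scaled to the total of its sum, and each log2 fold change is Ifng-positive over Ifng-negative. Of 7942 genes tested, 49 were higher in Ifng-positive cells (0.617%) and 54 lower (0.68%), or 1.3% in either direction. Of these 103 genes, 99 had the same sign in both runs, against 54.5% of all tested genes. The 103 were called from both runs together, which favours genes with the same sign, so this agreement is no separate check. Over all 7942 tested genes, the log fold changes of the runs had a Pearson correlation of 0.166. The labels do not say that the replicates came from separate animals, so p-values measure the spread between these sums, which may be technical. The block decides the calls: without it edgeR called 0 genes, with 146 at an unadjusted p under 0.05, and DESeq2 with the block called 17 higher and 10 lower.

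Il12rb2, Il18rap and Il18r1, receptor chains for interleukin-12 and interleukin-18, were higher in Ifng-positive cells, and the 2 interleukin-18 chains passed fewer of the alternative settings. Il12rb2, the inducible chain of the interleukin-12 receptor, stood at 771 CPM in Ifng-positive against 531 in Ifng-negative cells of run 1, and at 1125 against 680.4 CPM in run 2. Ifng-positive sums were thus the higher in each run, with a log2 fold change of 0.63 (SE 0.10, adjusted p = 0.00012). Il18rap, the accessory chain of the interleukin-18 receptor, stood at 277 against 191 CPM in run 1 and 397 against 254 CPM in run 2 (log2 fold change 0.59, SE 0.14, adjusted p = 0.024). Il18r1, its ligand-binding chain, stood at 511 against 432 CPM and 713 against 447 CPM (log2 fold change 0.44, SE 0.12, adjusted p = 0.047). These were 3 of the 10 genes in the list of interleukin-12 and interleukin-18 receptors and signalling, and no member was called lower. Of the 10, 8 had a positive log2 fold change and 6 had the same sign in both runs. Among all 7942 tested genes, 3906 were positive and 54.5% had the same sign in both runs. The list's median log2 fold change was 0.29, against -0.01 over all tested genes. It was 0.06 in run 1 alone, with 5 members positive and 5 negative, and 0.35 in run 2 alone, with 9 positive and 1 negative. Il18r1 and Il18rap each passed 9 of 17 alternative settings, against 15 for Il12rb2. Both calls were lost with DESeq2 (adjusted p = 0.9998 and 0.88), with cells thinned to 1500 counts (0.30 and 0.19), with cells counted in place of counts, and without cells carrying other-cell or 3 or more ILC2 markers. Stat4, which carries the interleukin-12 signal, had 293 against 297 CPM in run 1 and 338 against 267 CPM in run 2 and did not pass (adjusted p = 0.82). The Il12rb2 gene overlaps Serbp1 on the opposite strand, and strand use in counting is not given in the sources used here. Serbp1 itself had a log2 fold change of -0.04 (adjusted p = 0.94).

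Detection cell by cell followed the same order. With every cell thinned to 1500 counts, Il12rb2 was detected in 52.1% of Ifng-positive and 35.2% of Ifng-negative cells of run 1, and in 69.4% and 49.2% of run 2. Without thinning, the shares were 75.3% and 48.3% in run 1 and 75.4% and 56.6% in run 2. Read the other way, the Ifng-positive share differed with how many of Il12rb2, Il18r1 and Il18rap a cell showed. These 3 are the list members called higher in the same cells. The order below thus restates those calls and is no separate support. In run 1 it was 16.4% of 152 cells with none of the 3, 23.5% of 251 with 1, 30.4% of 191 with 2 and 48.5% of 99 with all 3. In run 2 it was 15.03% of 173, 28.7% of 171, 37.0% of 216 and 50.3% of 169 cells. Median depth in these classes also moved, from 4354.5 to 4990.0 counts in run 1 and from 1998 to 2199 in run 2, and its part in the order was not tested.

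Tbx21 did not pass the test. It stood at 141 against 67.4 CPM in run 1 and at 73.2 against 67.5 CPM in run 2, so the states lay apart in run 1 and close together in run 2 (log2 fold change 0.69, SE 0.25, adjusted p = 0.27). A Tbx21 count was present in 23.7% of Ifng-positive and 12.9% of Ifng-negative cells of run 1, and in 12.5% and 13.9% of run 2. It passed under 0 of the 17 alternative settings, with adjusted p from 0.070 upward. Of the 11 tested members of the list of type 1 transcription factors, only Prdm1 was called. Prdm1, which encodes the repressor Blimp-1 of effector lymphocytes, stood at 150.01 against 103 CPM and 193 against 93.6 CPM (log2 fold change 0.77, SE 0.20, adjusted p = 0.048), and passed 9 of 17 alternative settings. The median over that list was 0.07, with -0.02 in run 1 alone and 0.12 in run 2 alone.

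**Figure D2:**
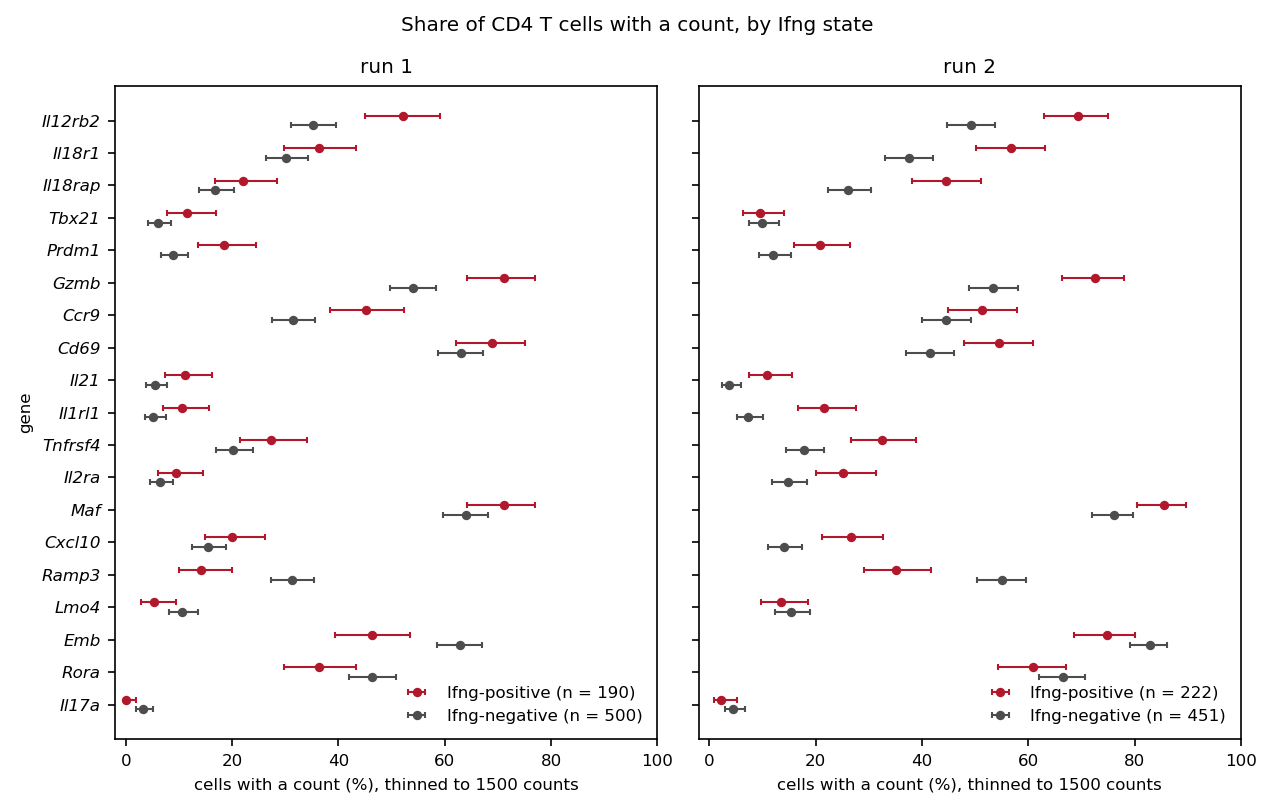
Share of CD4 T cells with at least 1 count of each of 19 genes (x axis, %) after every cell was thinned to 1500 counts, for Ifng-positive and Ifng-negative cells of run 1 (left) and run 2 (right). Bars are Wilson 95% intervals. Il12rb2, Gzmb and Il21 lie to the right in Ifng-positive cells of both runs, Ramp3 and Emb lie to the left, and Tbx21 differs in direction between runs.

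Gzmb, which encodes the granule protease granzyme B, had the smallest adjusted p of all genes. It stood at 4652 CPM in Ifng-positive against 2945 in Ifng-negative cells of run 1 and at 3701 against 2436 CPM in run 2 (log2 fold change 0.63, SE 0.06, adjusted p = 2.9e-07). A Gzmb count was present in 80.5% against 60.04% of cells in run 1 and in 75.8% against 57.5% in run 2, so most Ifng-negative cells carried the transcript too. Of 17 granule and killing genes tested, 2 were higher and none lower. The list's median was 0.19, with 0.21 in run 1 alone and -0.01 in run 2 alone. The other called member, Gzma, differed in sign between runs, with 1737 against 945 CPM in run 1 and 2153 against 2172 CPM in run 2. Nkg7 (adjusted p = 0.23) did not pass. None of 12 tested NK-cell receptors and adaptors passed, at a list median of 0.03 (0.33 in run 1 alone and -0.15 in run 2 alone).

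Ccr9, Cd69 and Klf2, from the list of chemokine receptors and homing genes, were among the called genes, whereas the list as a whole had no common direction. Of its 23 tested members, 10 had a positive log2 fold change, and the median was -0.04. Ccr9, the receptor for the small-intestinal chemokine CCL25, stood at 733 against 511 CPM and 752 against 598 CPM (log2 fold change 0.43, adjusted p = 0.022). Ccr9 overlaps Lztfl1 on the other strand, which was itself higher (log2 fold change 0.72, adjusted p = 0.030). Cd69, an early activation and retention marker, stood at 2108 against 1403 CPM and 732 against 500.4 CPM (log2 fold change 0.57, adjusted p = 7.9e-05). Klf2, a factor that maintains recirculation, was lower, at 183 against 339 CPM and 35.7 against 51.3 CPM (log2 fold change -0.80, adjusted p = 0.036), and passed 9 of 17 alternative settings. Cxcr3, a Th1-associated receptor, stood at 73.1 against 65.0 CPM and 67.9 against 84.6 CPM and did not pass (adjusted p = 0.98).

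Of 7 tested chemokines, 4 were higher and 1 lower, with a median of 0.94. Cxcl10, an interferon-induced ligand of CXCR3, stood at 688 against 421 CPM in run 1 and 538 against 227 CPM in run 2 (log2 fold change 0.94, SE 0.12, adjusted p = 1.8e-05). It was one of 2 called among 27 tested genes of the interferon-gamma receptor and response list. The list's median was 0.09, with -0.0003 in run 1 alone and 0.10 in run 2 alone. The other called gene, Cxcl9, had 418 against 23.1 CPM in run 1 and 14.3 against 19.8 CPM in run 2. Its call thus rested on run 1. Ccl4 stood at 151 against 34.9 CPM and 152 against 122 CPM, and Ccl3 at 47.7 against 6.09 CPM and 10.7 against 4.50 CPM, both encoding inflammatory chemokines and both called (adjusted p = 0.013 and 0.029). A single cell held 38.8% of the Ccl3 counts of Ifng-positive cells in run 1. Cxcl2, a neutrophil attractant, was called lower (33.1 against 94.6 CPM and 48.2 against 78.3 CPM, log2 fold change -1.15), but a single cell held 49.8% of its Ifng-negative counts in run 1 and 72.4% in run 2. Its log2 fold change was 0.34 without cells carrying 3 or more stromal markers. The type I interferon response had 0 of 18 members called and a median of -0.13.

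Of 21 tested cytokines other than Ifng, Il21 was higher, Il17a was lower and the rest did not pass, with a median of 0.21. That median was -0.12 in run 1 alone and 0.23 in run 2 alone. Interleukin-21 is made by follicular helper, Th17 and some Th1 cells and supports B cells and killer cells. Il21 stood at 167 against 50.3 CPM in run 1 and 125 against 24.3 CPM in run 2 (log2 fold change 1.96, SE 0.25, adjusted p = 9.3e-06). A count was present in 20.5% of Ifng-positive and 7.75% of Ifng-negative cells of run 1 and in 15.8% and 4.91% of run 2, so Il21 marked a minority in both states. Of 11 tested follicular helper genes, Il21 alone passed, and the list's median was -0.27 (-0.44 in run 1 alone and 0.08 in run 2 alone). Tnf stood at 148 against 86.9 CPM and 66.1 against 27.9 CPM and missed the threshold (adjusted p = 0.060). Il22 stood at 223 against 178 CPM and 543 against 364 CPM and did not pass (adjusted p = 0.10). Il22 was detected in 5.79% of Ifng-positive and 12.5% of Ifng-negative cells of run 1 and in 15.8% and 12.3% of run 2, so detection and level pointed opposite ways in run 1. A single cell held 62.0% of the Il22 counts of Ifng-positive cells there. Il10 differed in direction between runs (54.6 against 64.1 CPM and 69.7 against 11.7 CPM, adjusted p = 0.55).

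The 250 bases before the transcription start of Ifng and of 4 genes that were higher with it are printed to show where the textbook T-bet and AP-1 motifs fall. Il12rb2, Gzmb and Il21 are shown because they are the named higher genes whose windows hold the T-bet motif, and Il18rap as one of those without it. They are RefSeq promoter windows on GRCm38.p6, the files' build, on the gene's own strand. Capitals mark matches, on either strand, of the T-box half-site GTGTGA and of the AP-1 site TGANTCA. The windows are chr10:118440796-118441045 (plus strand) for Ifng, chr6:67376189-67376438 (minus) for Il12rb2, chr14:56262335-56262584 (minus) for Gzmb, chr3:37232637-37232886 (minus) for Il21 and chr1:40515112-40515361 (plus) for Il18rap.
Ifng: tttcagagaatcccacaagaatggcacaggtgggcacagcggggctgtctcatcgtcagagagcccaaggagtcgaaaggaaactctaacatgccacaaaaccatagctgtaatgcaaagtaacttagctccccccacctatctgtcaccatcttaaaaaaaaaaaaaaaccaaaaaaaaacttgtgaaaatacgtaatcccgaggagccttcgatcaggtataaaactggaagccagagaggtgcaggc
Il12rb2: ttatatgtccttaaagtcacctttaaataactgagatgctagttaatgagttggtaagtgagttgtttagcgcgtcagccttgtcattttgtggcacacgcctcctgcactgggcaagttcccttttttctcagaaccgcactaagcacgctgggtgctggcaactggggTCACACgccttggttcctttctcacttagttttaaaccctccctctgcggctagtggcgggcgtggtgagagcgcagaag
Gzmb: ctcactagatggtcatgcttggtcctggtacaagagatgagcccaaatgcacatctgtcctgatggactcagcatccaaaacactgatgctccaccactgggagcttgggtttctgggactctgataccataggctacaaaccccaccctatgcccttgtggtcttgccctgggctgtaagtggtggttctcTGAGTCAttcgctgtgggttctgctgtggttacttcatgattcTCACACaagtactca
Il21: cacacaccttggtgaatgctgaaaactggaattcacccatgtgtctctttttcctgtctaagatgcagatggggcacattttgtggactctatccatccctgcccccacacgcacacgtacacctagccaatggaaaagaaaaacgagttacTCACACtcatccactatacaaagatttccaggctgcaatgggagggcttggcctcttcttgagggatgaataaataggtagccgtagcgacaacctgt
Il18rap: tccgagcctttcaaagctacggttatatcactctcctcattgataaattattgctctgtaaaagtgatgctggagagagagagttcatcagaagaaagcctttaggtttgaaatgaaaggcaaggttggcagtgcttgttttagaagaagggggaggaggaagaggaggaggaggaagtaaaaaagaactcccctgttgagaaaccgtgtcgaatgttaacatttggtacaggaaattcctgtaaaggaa

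The T-box half-site was found once each in the windows of Il12rb2, Gzmb and Il21, at 80, 15 and 98 bases before the start, and 0 times in those of Ifng and Il18rap. Gzmb also held 1 AP-1 match, 58 bases before the start. Over the named higher genes, 3 of 20 windows found in the table held the half-site, against 1 of 13 windows of the named lower genes and 12.2% of all 27025 windows. The AP-1 site was in 3 of 20, 2 of 13 and 6.87% of all windows. The STAT element TTCNNNGAA was in 1 of 20 and 0 of 13 against 7.18%, and the RUNX site TGTGGT in 2 of 20 and 1 of 13 against 14.2%. The T-box and AP-1 matches do not overlap in the windows printed. A match is a description of letters and no evidence of binding.

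Of the genes usually listed with regulatory T cells, 3 of 13 tested were higher. Il1rl1, the interleukin-33 receptor of ILC2, Th2 and tissue regulatory T cells, stood at 178 against 79.6 CPM in run 1 and 269.7 against 73.8 CPM in run 2 (log2 fold change 1.48, SE 0.20, adjusted p = 2.3e-05). Tnfrsf4, which encodes the costimulatory receptor OX40, stood at 344 against 215 CPM and 338 against 152 CPM (log2 fold change 0.88, adjusted p = 0.00058). Il2ra, the alpha chain of the interleukin-2 receptor, stood at 136 against 73.5 CPM and 269.7 against 149 CPM (log2 fold change 0.87, adjusted p = 0.0073). No member was called lower, and the median was 0.25 (0.08 in run 1 alone and 0.58 in run 2 alone). Of the 13, 11 had a positive log2 fold change and 6 had the same sign in both runs. Over all 7942 tested genes, 3906 were positive and 54.5% had the same sign in both runs. Foxp3, the defining factor of regulatory T cells, had a count in 0 of 693 CD4 T cells of run 1, which allows up to 0.433%, and in 1 of 729 of run 2, the latter Ifng-positive. Over all filtered cells it had one in 3 of 5054 and 7 of 4989, so these counts limit cells with a Foxp3 count and not cells expressing the gene. Tnfrsf4 was the 1 called gene of 25 costimulatory and checkpoint receptors, whose median was -0.01.

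Th17 genes split. Il17a, the cytokine that names this lineage, stood at 0.974 against 52.8 CPM in run 1 and 50.02 against 149 CPM in run 2 (log2 fold change -2.40, SE 0.40, adjusted p = 0.00039). The run 1 sum of Ifng-positive cells held 1 count, from 1 cell, against 130 from 20 cells, a ratio of 54.2. Its exact 95% counting interval of 9.55 to 2156 treats reads as independent, which they are not, so it understates the error. In run 2 a single cell held 67.9% of the Il17a counts of Ifng-positive cells. Another held 33.1% of those of Ifng-negative cells. Il17a was present in 3.98% and 4.91% of Ifng-negative cells, and thinning, matching Ifng-negative cells on depth, counting cells in place of counts, or leaving out cycling cells each ended the call. Rora, a nuclear receptor of Th17 cells and innate lymphoid cells, was lower (597 against 956 CPM and 986 against 1093 CPM, log2 fold change -0.42, adjusted p = 0.028). The Rora call passed 10 of 17 alternative settings, and was lost with DESeq2 and after thinning, among others. Maf, a factor of Th17, follicular helper and interleukin-10-producing T cells, was higher (1882 against 1567 CPM and 2385 against 1669 CPM, log2 fold change 0.39, adjusted p = 0.0031). With Il21, 2 of 16 tested Th17 genes were higher and 2 lower, at a median of -0.01. That median was -0.31 in run 1 alone and 0.34 in run 2 alone.

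**Figure D3:**
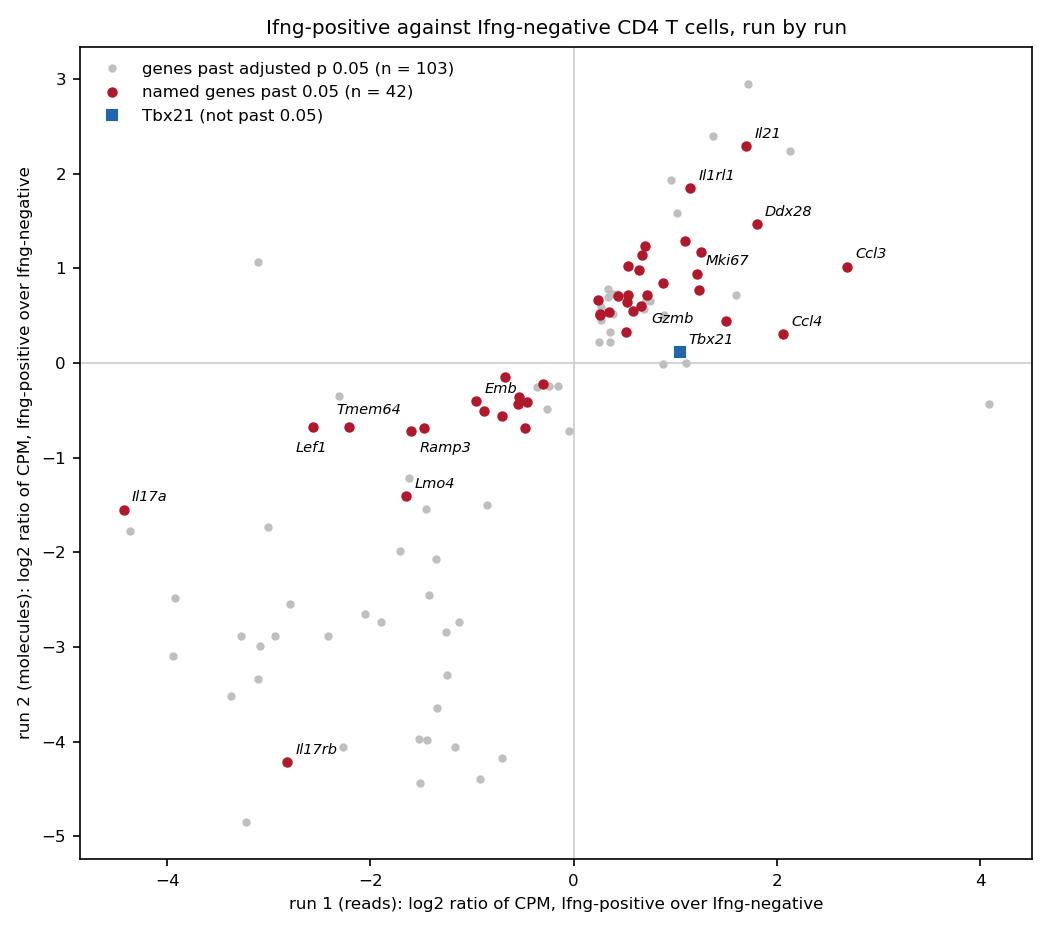
Log2 ratio of CPM (prior count 2), Ifng-positive over Ifng-negative, in run 1 (x axis) against run 2 (y axis) for the 103 genes past adjusted p = 0.05 (grey), the 42 named genes among them (red) and Tbx21 (blue). Of the 103, 99 lie in the upper right or lower left of the plot, Il21 lies at 1.70 and 2.29, and Tbx21 lies at 1.05 and 0.12. The 103 were called from both runs together, so their placement is no separate check.

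Among the named lower genes, Ramp3 had the widest gap in detection in both runs. It encodes a partner of the calcitonin-receptor-like receptor, which together bind peptides of the calcitonin family such as adrenomedullin. Ramp3 stood at 155 against 472 CPM in run 1 and 509 against 838 CPM in run 2 (log2 fold change -1.13, SE 0.14, adjusted p = 8.4e-06). A count was present in 23.2% of Ifng-positive against 42.7% of Ifng-negative cells of run 1, and in 38.8% against 59.7% of run 2. Emb, which encodes the membrane glycoprotein embigin, stood at 855 against 1668 CPM and 1529 against 2026 CPM (log2 fold change -0.69, adjusted p = 2.3e-05). Lmo4, which encodes a LIM-domain transcription cofactor, stood at 51.6 against 165 CPM and 105 against 282 CPM (log2 fold change -1.54, adjusted p = 9.9e-06). A count of Lmo4 was present in 12.6% against 18.9% of cells in run 1 and in 17.1% against 18.8% in run 2. With cells counted in place of counts, its log2 fold change was -0.40 and it did not pass (adjusted p = 0.76 in edgeR). Dtx1, a regulator of Notch signalling, and Nrip1, a corepressor of nuclear receptors, were lower by smaller folds (log2 fold change -0.65 and -0.58). Tmem64, Eprs, Elf1 and Gramd3 were lower too (log2 fold change -1.41, -0.50, -0.45 and -0.44), and Chsy1, an enzyme of chondroitin sulfate synthesis, and Ehd1, a membrane-trafficking ATPase, were higher (1.03 and 1.01). Emb, Il17rb, Il21 and Cxcl10 overlap a gene on the opposite strand (Gm17509, Actr8, Gm12534 and Art3). So do Ramp3 (Gm11978), Elf1 (Wbp4), Hspa1a (Gm20481), Maf (Gm15655) and Rora (Gm15511). The same is true of Lef1, Chsy1, Mki67, Prr5l and Top2a. The caution given for Il12rb2 holds for all of these.

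Of 13 tested naive and recirculating T-cell genes, 2 were lower and none higher, with a median of -0.15. Besides Klf2 this was Lef1, a transcription factor of naive T cells, at 8.77 against 59.7 CPM and 10.7 against 18.0 CPM (log2 fold change -2.05, SE 0.49, adjusted p = 0.023). Its log2 fold change was -2.57 in run 1 alone and -0.67 in run 2 alone. Lef1 passed 9 of 17 alternative settings, and its call was lost with Ifng-negative cells matched on depth (-1.27, adjusted p = 0.55), with DESeq2 (0.9998), after thinning (0.46) and with Ifng-positive cells taken from 2 counts (0.064). With DESeq2, and without cells carrying 3 or more ILC2 markers, 0 of the 13 were called. Tcf7, its partner in naive and memory T cells, stood at 256 against 348 CPM and 330.5 against 417 CPM and did not pass (adjusted p = 0.18). Ribosomal protein genes had lower values in Ifng-positive cells in 79 of 80 members, at a median of -0.15, although Rplp1 alone passed (log2 fold change -0.26, adjusted p = 0.028). The transcripts of the mitochondrial genome mt-Co1, mt-Co3 and mt-Nd2, were lower as well (log2 fold change -0.20, -0.31 and -0.24), and were singled out after their values were seen. The median mitochondrial share of counts was 4.999% against 5.70% in run 1 and 4.30% against 4.98% in run 2.

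Cell-cycle genes were among the higher genes. Mki67, a marker of cycling cells, stood at 258 against 110.4 CPM and 105 against 54.0 CPM (log2 fold change 1.13, SE 0.20, adjusted p = 0.0011), and Top2a, a topoisomerase of dividing cells, at 344 against 143 CPM and 134 against 58.5 CPM (log2 fold change 1.24, adjusted p = 5.9e-05). Mki67 was detected in 19.5% against 10.3% of cells in run 1 and in 12.9% against 6.75% in run 2. Detection of Top2a lay closer, at 17.9% against 16.3% and 10.8% against 8.59%. A single cell held 22.4% of the Top2a counts of Ifng-positive cells in run 1 and 25.3% in run 2. Of 11 tested cycling markers, 5 were higher and none lower, with a median of 1.13. Cells with 3 or more cycling markers made up 19.5% of Ifng-positive and 9.34% of Ifng-negative cells in run 1, and 7.92% and 6.95% in run 2. Leaving out every cell with Mki67 or Top2a left 60 higher and 44 lower genes, among which 69 were called with those cells in, Gzmb, Il21 and Il12rb2 included. Without the deepest 5% of cells Top2a no longer passed.

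Of 40 immediate early genes of receptor stimulation, 3 were higher: Cd69, Nfkbia and Nfkbiz, the last 2 encoding regulators of NF-kappaB (log2 fold change 0.37 and 0.44). None was lower, 26 of the 40 had a positive log2 fold change, 29 had the same sign in both runs, and the list's median was 0.10. For all 7942 tested genes, 3906 were positive and 54.5% had the same sign in both runs. Without cells carrying 3 or more stromal markers 6 of 39 were higher, at a median of 0.21, and after thinning 0 of 36 were called. Nfkbia passed 11 and Nfkbiz 8 of 17 alternative settings. Of 15 heat shock genes, Hspa1a and Hspa1b were higher (log2 fold change 0.73 and 0.53), near-identical copies whose reads cannot be told apart with certainty. Their call was lost without cells carrying markers of other cell types. None of 24 T-cell receptor signalling genes, 15 glycolysis genes or 30 oxidative phosphorylation genes passed, at medians of -0.07, 0.20 and 0.10. The oxidative phosphorylation median was 0.14 in run 1 alone and -0.0006 in run 2 alone.

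Further along the Ifng count, detection of several genes continued to differ. Cells were placed by Ifng counts of 0, 1, 2 to 3 and 4 or more, with 503, 43, 60 and 87 cells in run 1 and 489, 108, 71 and 61 in run 2. Il1rl1 was detected in 6.76%, 6.98%, 16.7% and 20.7% of these classes in run 1 and in 8.18%, 11.1%, 26.8% and 39.3% in run 2. Il21 was detected in 7.75%, 18.6%, 13.3% and 26.4% in run 1 and in 4.91%, 9.26%, 11.3% and 32.8% in run 2. The highest class had the highest share for both genes in both runs, whereas Il12rb2 differed between runs. Its shares were 48.3%, 76.7%, 76.7% and 73.6% in run 1, with no order from 1 count upward, and 56.6%, 67.6%, 76.1% and 88.5% in run 2, higher at each step. Gzmb had no order from 1 count upward in either run, with 88.4%, 76.7% and 79.3% in run 1 and 75.9%, 73.2% and 78.7% in run 2. Tbx21 showed no order in run 2, with 13.9%, 11.1%, 15.5% and 11.5%. These shares are unthinned descriptions with no test.

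**Figure D4:**
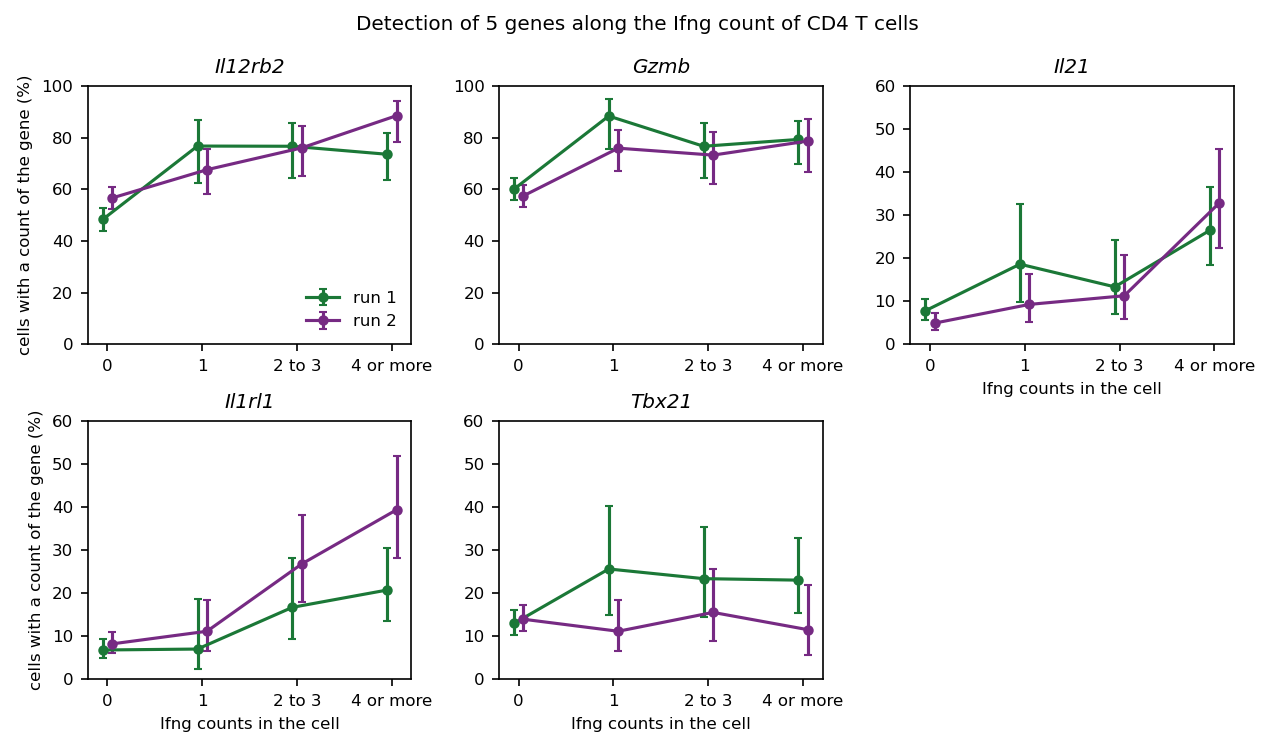
Share of CD4 T cells with a count of each of 5 genes (y axis, %) by the number of Ifng counts in the cell (x axis) in run 1 and run 2, with Wilson 95% intervals and lines joining classes of the same run. The share of Il1rl1 is higher at each step in both runs, from 6.76% to 20.7% and from 8.18% to 39.3%, and Tbx21 stays between 11.1% and 15.5% in run 2.

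Markers of other cells moved with the comparison. Of 12 listed stromal or endothelial markers, 7 were tested and 6 were lower in Ifng-positive cells. Their summed level was 12.1 per 10000 counts in Ifng-positive and 28.3 in Ifng-negative cells of run 1, and 1.87 and 9.56 in run 2, with a median cell at 0 in each group, a highest cell between 20.2 and 789, and Cdh5, Kdr, Acta2 and Des at 0 throughout. Cells with 3 or more of these markers numbered 2 of 190 against 19 of 503 and 0 of 240 against 4 of 489. Without those cells 75 genes were higher and 46 lower, 71 of them called before. Of 11 ILC2 markers, Il17rb, Calca and Il1rl1 were called, the first 2 lower and the last higher. The summed ILC2 level was 3.65 against 3.32 per 10000 in run 1 and 4.47 against 5.22 in run 2, with a median cell at 0, a highest cell between 56.1 and 156 and Rxrg at 0 in 3 of the 4 groups. Cells with 3 or more ILC2 markers numbered 2 against 12 and 3 against 18. Il17rb, the interleukin-25 receptor, came from 1 and 1 Ifng-positive against 11 and 23 Ifng-negative cells, and no longer passed the low-count filter without those cells. Il1rl1 remained called there. The ILC3 list had 0 of 11 tested members called, with summed levels of 18.0 against 18.4 and 33.5 against 31.4. In run 2 the B and plasma cell list was at 78.5 against 117 per 10000, with Igkc and Igha lower. In the mast-cell list Mcpt2 was called on run 1 alone, with 0 counts in run 2. The part of these cells in the other results was not tested beyond the counts given.

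CD8 T cells could not be fitted beside CD4 T cells, because run 2 held 12 Ifng-positive CD8 T cells against a minimum of 20. Values are given side by side with no test. Ccl4 was detected in 59.5% of Ifng-positive and 32.9% of Ifng-negative CD8 T cells of run 1, against 9.47% and 6.16% of CD4 T cells, and in 58.3% and 27.8% of CD8 T cells of run 2. Il21 and Il1rl1 were detected in 0 of 74 Ifng-positive CD8 T cells of run 1, which allows up to 4.05%, and in 20.5% and 16.3% of Ifng-positive CD4 T cells. In run 2 each was detected in 8.33% of the 12 Ifng-positive CD8 T cells and in 0 of 108 Ifng-negative ones. Il12rb2 was detected in 21.6% of Ifng-positive and 17.1% of Ifng-negative CD8 T cells of run 1 and in 8.33% and 16.7% of run 2, so the runs differed in direction.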

How the data were processed

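Single-cell RNA-seq of sorted small-intestinal ILC3 from 2 replicates was analysed from the count tables the authors deposited. Per the file headers, the BD Rhapsody whole-transcriptome pipeline made them, in version 1.8 for replicate 1 (reads per cell) and 1.9.1 for replicate 2 (molecules per cell). The build was GRCm38.p6, and HISAT2 2.0.5 and Bowtie2 are named, per the submitters' processing notes. The deposited tag calls gave 5302 cells of tag 8 and 5010 of tag 12. Multiplets by tag (815 and 1997) and 7 other tag values were left out, doublets within a tag were not called, and 35 cell barcode numbers occur in both runs.

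Summed counts of 19371 genes in both tables were tested in edgeR 4.0.16 (R 4.3.3) with TMM scaling, the run as a block and a threshold of 0.05, after filterByExpr with minima of 10 per sum and 15 in all, with 1 residual degree of freedom and 28.75 prior degrees of freedom. Both states of a run come from the same captured cells, which is what pairs them. Each CPM divides by the total of tested genes times its TMM factor. Counts were simulated as negative binomial draws with a dispersion shared by all genes and taken from the fit itself. On them the fit recovered 96.8% of 4-fold and 53.2% of 2-fold changes with 5 false calls among 8004 genes. The draws held no repeated reads and no sums led by a single cell, so error rates in the real data were not measured. DESeq2 1.42.0 and other settings were alternatives. Named genes were Tbx21, Il12rb2, up to 4 called members of each list, and the 10 most raised and 10 most lowered genes that kept their sign in both runs and were detected in at least 10% of cells of the higher state. Members and lists were chosen with earlier results of these data known. Of the listed other-cell markers, none of the ILC1 or NK, myeloid or epithelial cell genes was called, erythroid genes were not tested, and Tcrg-C2 was called higher among gamma-delta T-cell genes. Invariant T-cell genes had 1 of 5 lower (Il17rb), Th2 genes 1 higher and 1 lower of 8.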

Additional observations from a re-analysis of the deposited data

How the results depend on the processing

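Numbers of genes higher and lower in Ifng-positive cells (49 and 54) depended on the processing. Without the replicate block both were 0. DESeq2 with the block gave 17 and 10, cells thinned to 1500 counts 5 and 4, and summing cells with a count in place of counts 6 and 2. Leaving out every cell with a count of another cell type gave 29 and 13, leaving out cells with 3 or more ILC2 markers 32 and 28, and leaving out those with 3 or more stromal markers gave 75 higher. The lower genes were 116 without a filter on low counts, 86 with Ifng-negative cells matched on depth and 27 without the deepest 5% of cells. The other settings kept both counts within 1.5 times. The alternatives that remove cells with stromal, cycling or ILC2 markers were added after seeing the data. All 9 genes called after thinning, and all 27 called by DESeq2, were among the 103. Of the 43 named genes, Ramp3 and Il1rl1 passed all 16 alternatives with the block. Gzmb passed 15 of 17 alternatives and failed without the block and when cells were counted. Il12rb2 and Il21 also passed 15 and failed without the block and when thinned (adjusted p = 0.084 and 0.065). Other named calls were less stable, among them those given next. Lef1, Klf2, Prdm1, Il18r1, Il18rap, Nrip1, Elf1 and Gramd3 passed 9 of 17, and Eprs and Nfkbiz 8. Rora, Dtx1 and Rplp1 passed 10 of 17, and Nfkbia, Hspa1b, Ehd1 and Ccl4 11. Il17a passed 11 of 16, Cxcl2 6 of 15 and Ccl3 5 of 11. Besides the loss of all 42 calls without the block, DESeq2 ended 27 of the 43 named results' calls, thinning 32 of 41, counting cells 32 of 40, leaving out ILC2-marker cells 17 of 42 and leaving out cells with a count of another cell type 13 of 41, with the direction kept. Direction turned for Cxcl2 alone: 0.22 when thinned, 0.87 without cells of other types and 0.34 without stromal markers. Each run on its own has no residual degree of freedom and gives a value with no test. The joint fit with CD8 T cells and the interaction with lineage were not run, because 12 Ifng-positive CD8 T cells were too few. Where the text names no cause for a change of count, the cause was not tested. Run 1 holds reads, so its counts are not independent molecules.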

Other observations

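Among Ifng-positive CD4 T cells, Il21 and Il17a were counted together in 0 of 190 cells of run 1 and 1 of 240 of run 2, Il21 and Il10 in 3 and 6, and Il21 and Tnf in 6 and 4. Of CD4 T cells with an Il21 count, 39 of 78 in run 1 and 61.3% of 62 in run 2 had an Ifng count. Of those with an Il10 count, 31.0% of 42 and 72.0% of 25 had one, so the runs differed for Il10. Of those with a Ramp3 count, 17.0% of 259 and 24.2% of 385 had one. Tmsb4x and Actb, which encode an actin-binding peptide and actin, were higher in Ifng-positive cells (log2 fold change 0.24 and 0.29, adjusted p = 0.0026 and 0.0027 in edgeR), as was Vim, which encodes an intermediate filament protein (log2 fold change 0.56, adjusted p = 0.0071), named after their values were seen. Prr5l, which encodes a component linked to mTOR complex 2, stood at 88.6 against 40.6 CPM and 225 against 90.9 CPM (log2 fold change 1.22, SE 0.22, adjusted p = 0.0014 in edgeR), and Ddx28 at 76.0 against 20.7 CPM and 62.5 against 21.6 CPM, a gene that lies against Dus2 on the opposite strand.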
